A study of Drosophila melanogaster with 8 samples.

Results

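The genes of the proteasome, the enzyme complex that degrades proteins tagged with ubiquitin, were examined for binding of the Drosophila transcription factor Ribbon (Rib) in embryos. Members were the protein-coding genes whose symbol begins with Prosalpha, Prosbeta, or Rpn or Rpt followed by a number, in the RefSeq table of Release 6 of the Drosophila melanogaster genome. This gave 48 of the 13922 protein-coding genes on the 6 chromosome arms. No measured value entered this rule, although it was set with earlier results of these data known. A gene was counted as bound in a peak list when a peak summit lay within 500 bp of either of its ends. The table gives no strand, so the start of a gene could not be told from its end, and the ends are called the lower and the higher one by coordinate.

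Chromatin immunoprecipitation with an antibody to green fluorescent protein (GFP) was followed by sequencing. Embryos carried btl-GAL4 or trh-GAL4 with a UAS transgene, so that GAL4 made in the cells where breathless or trachealess is active, the trachea among them, switched on the fusion. Titles and genotypes name the transgene UAS-GFP, whereas the protocol names UAS-rib-GFP. The latter was used here, and with the former no value would measure Rib. The characteristics of the samples give stages 11 to 15, while the protocol gives 11 to 16. Chromatin came from several collections of whole embryos at 25°C. Since native Rib was not targeted, the values describe a fusion made by the drivers. There were 3 btl and 2 trh immunoprecipitated samples and 3 inputs.

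Values come from 4 deposited peak lists, and read depth is unknown from them. The btl list, from btl replicates 1 and 2, held 8693 regions, and the trh list, from trh replicates 1 and 2, held 3210. The list of btl replicate 3 held 17149 summits in 10205 regions on the arms. The fourth list, named highest confidence, held 2198 regions without summits. It is not treated as independent of the other lists, because the regions described below share bounds with theirs. Replicate 3 had another library kit and another sequencing centre, so replicate and batch cannot be told apart, while btl and trh replicates 1 and 2 shared both. Because no list gives values for replicates 1 and 2 singly, the values below carry no replicate error and no test was run. Fold enrichment is the authors' value for each peak, read here as a ratio over background on a linear scale, since the lists have no headers. Its percentile is the share of summits of the same list with an equal or lower fold.

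The proteasome has a barrel-shaped core of stacked rings. The outer rings are built of alpha subunits, which form the gate, and the inner rings of beta subunits, of which some cut peptide bonds. A regulatory particle caps the core. Its base holds the Rpt ATPases, which unfold substrates, with the large scaffold subunits Rpn1 and Rpn2 and the ubiquitin receptor Rpn13, and its lid holds the other Rpn subunits around the deubiquitinase Rpn11. Rpn10, another ubiquitin receptor, lies between lid and base. In Drosophila several subunits have paralogs, many of them known for expression in the testis, whose symbols carry an R or T after the subunit number. Rib has a BTB domain, a protein interaction domain, and is required for the growth and shape of embryonic tubes such as the trachea and the salivary gland.

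In the btl list 14 of the 48 proteasome genes (29.2%) were bound, where 26.7% of all protein-coding genes were. Replicate 3 held a summit at 18 (37.5%), against 36.1% of all genes, and the trh list at 1 (2.08%), against 8.32%. The highest-confidence list reached the window of 2 (4.17%), against 6.60%. By summits, 1 gene was bound in all 3 lists (2.08%), against 5.28% of all genes. Another 10 were bound in 2 lists, 10 in 1 list and 27 in none (56.2%). Over all 13922 genes these counts were 2525, 2643 and 8019 (57.6%). At least 1 list bound 21 (43.8%), against 42.4%. Taken whole, the family was thus bound about as often as genes in general in the btl and replicate 3 lists.

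Within the family the counts divided by kind of gene. Of the 32 genes without an R or T, the btl list bound 13 (40.6%) and replicate 3 bound 16 (50.0%), against 26.7% and 36.1% of all genes. The trh list bound 1 of them. Of the 16 paralogs with an R or T, the btl list bound 1 (6.25%), replicate 3 bound 2 (12.5%) and the trh list 0. Another protein-coding gene end lay within 500 bp of 31 of the 32 and of 8 of the 16, and of 71.0% of all genes. Among genes with such a neighbour the btl list bound 12 of the 31, 1 of the 8 paralogs and 30.2% of all genes, and replicate 3 bound 16, 2 and 41.6%. The 8 paralogs without a neighbour were bound in 0 lists, where the btl list bound 18.0% and replicate 3 22.6% of all such genes. The part that neighbouring genes play in these counts was not tested.

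By place in the complex, the btl list bound 1 of 7 alpha, 2 of 7 beta, 5 of 9 base and 4 of 8 lid genes, and Rpn10. Replicate 3 bound 5 alpha, 3 beta, 3 base and 5 lid genes, and not Rpn10. The core therefore had 3 of 14 genes in the btl list and 8 of 14 in replicate 3, and the regulatory particle 10 of 18 and 8 of 18. As shares these are 21.4% and 57.1% of the core and 55.6% and 44.4% of the particle, against 26.7% of all genes in the btl list and 36.1% in replicate 3. Whether the lists differ in this was not tested.

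**Figure D1:**
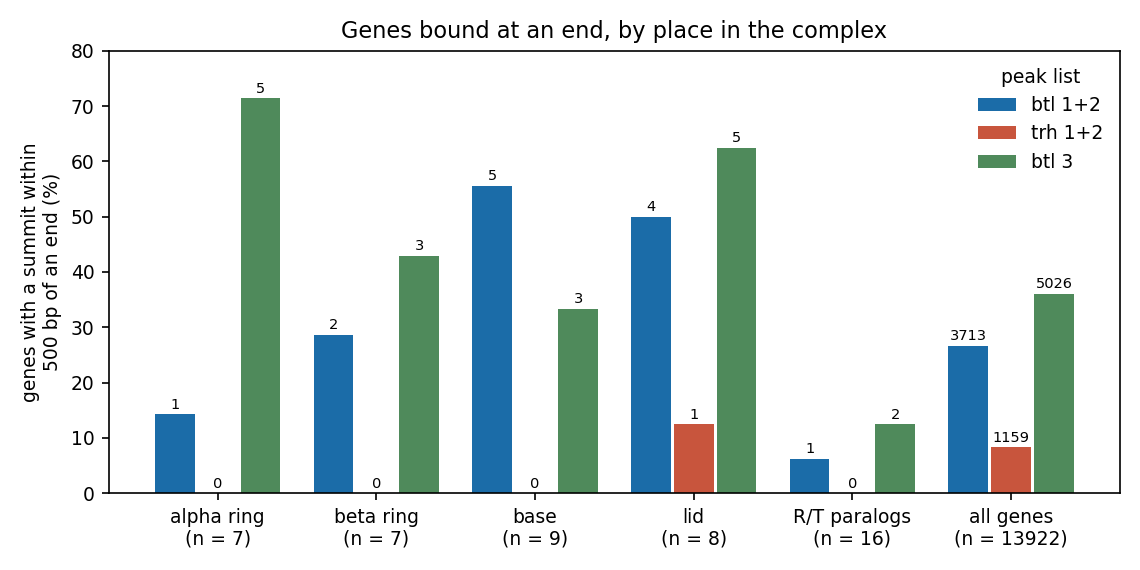
Share of genes with a summit within 500 bp of an end (y axis, %) in each list, by place in the complex, with the number of genes bound above each bar; Rpn10 is not drawn. In the btl list the base holds 5 of 9 and the lid 4 of 8, in replicate 3 the alpha ring holds 5 of 7, and the R and T paralogs lie under the share of all genes in each list.

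**Figure D2:**
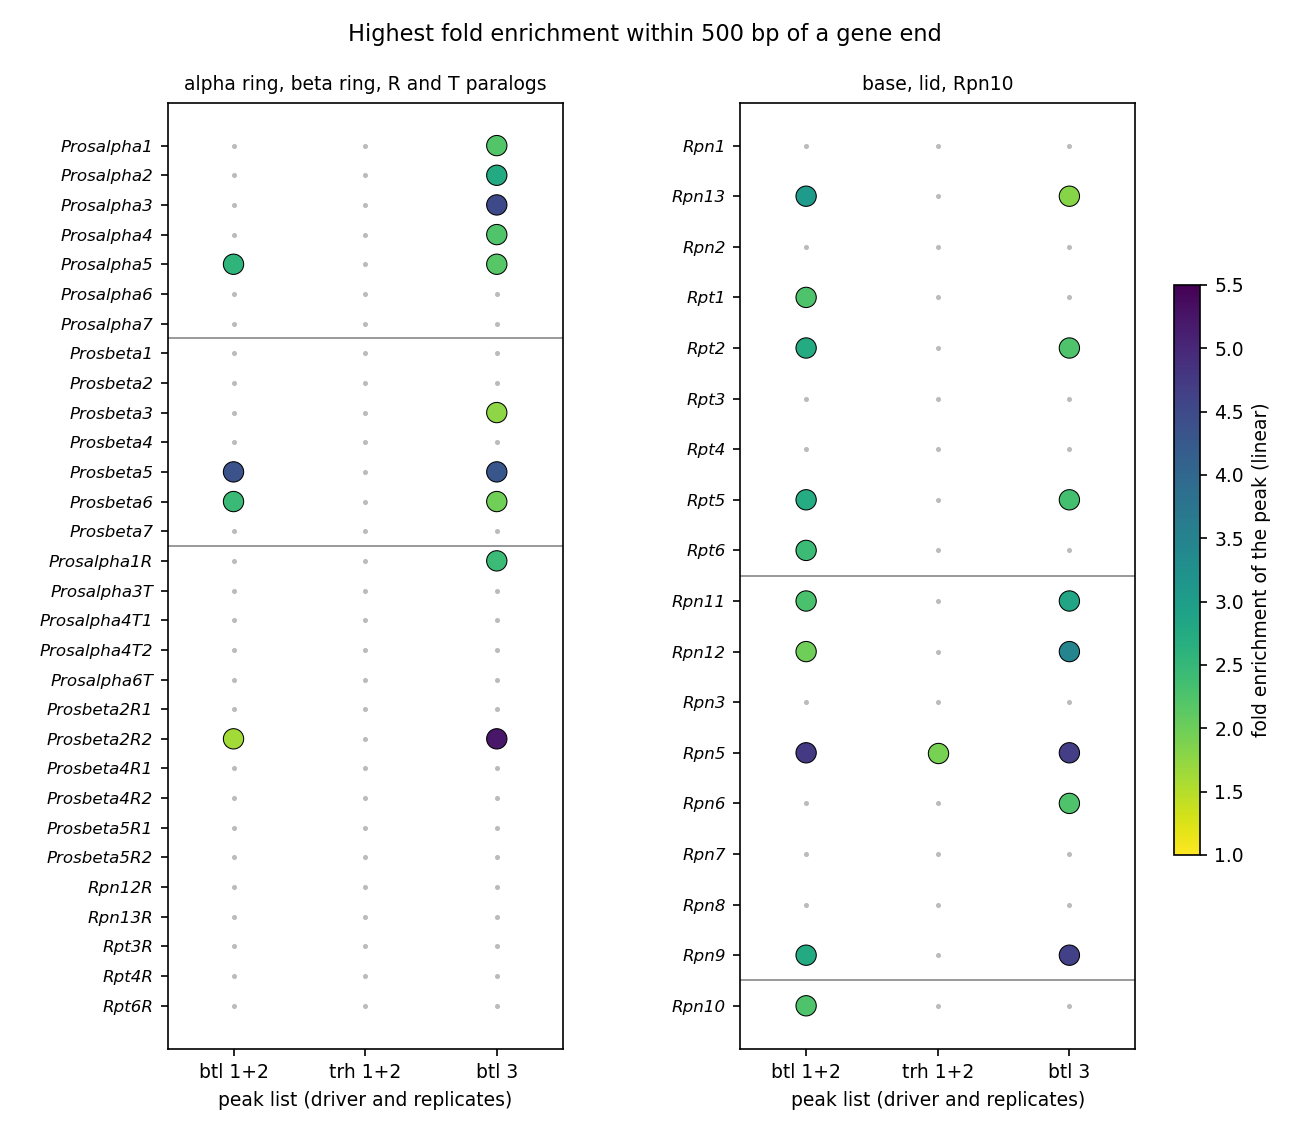
Each of the 48 genes (rows, grouped by place in the complex and separated by lines) in the 3 lists with summits (columns). Circles are coloured by the highest fold enrichment within 500 bp of a gene end and small grey dots mark genes not bound; the trh column holds a circle only at Rpn5, with 1.92.

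Rpn5, which encodes a structural subunit of the lid (Dmel_CG1100, chromosome 3R, 5789493 to 5791569), was the member bound in all 3 lists. Its strongest btl peak had a fold enrichment of 4.73 (percentile 88.7), its trh peak 1.92 (29.3) and its strongest replicate 3 peak 4.69 (91.8). All 3 summits lay past the higher end, outside the gene, at 112, 36 and 117 bp from it. The btl and replicate 3 summits were 5 bp apart and the trh summit was 76 and 81 bp from them, so the lists marked the same place.

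That place is the gap before Hpf1, which encodes a cofactor of ADP-ribosylation and begins 2386 bp from the lower end of Rpn5. The summits were nearer to Rpn5 than to Hpf1. A highest-confidence region covered that place. It had the bounds of the trh region, so it is not separate support. At the lower end, toward the histone acetyltransferase gene Hat1, the btl list had a weaker summit, with a fold of 2.26 (percentile 22.1) at 474 bp. Replicate 3 had 3.14 at 228 bp outside and 3.02 at 74 bp inside the gene (percentiles 72.8 and 70.2), and the trh list had no summit at that end. The next gene past Hpf1 is PSMG1, named in the table after a proteasome assembly chaperone, and its lower end lies 3815 bp from that of Rpn5.

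**Figure D3:**
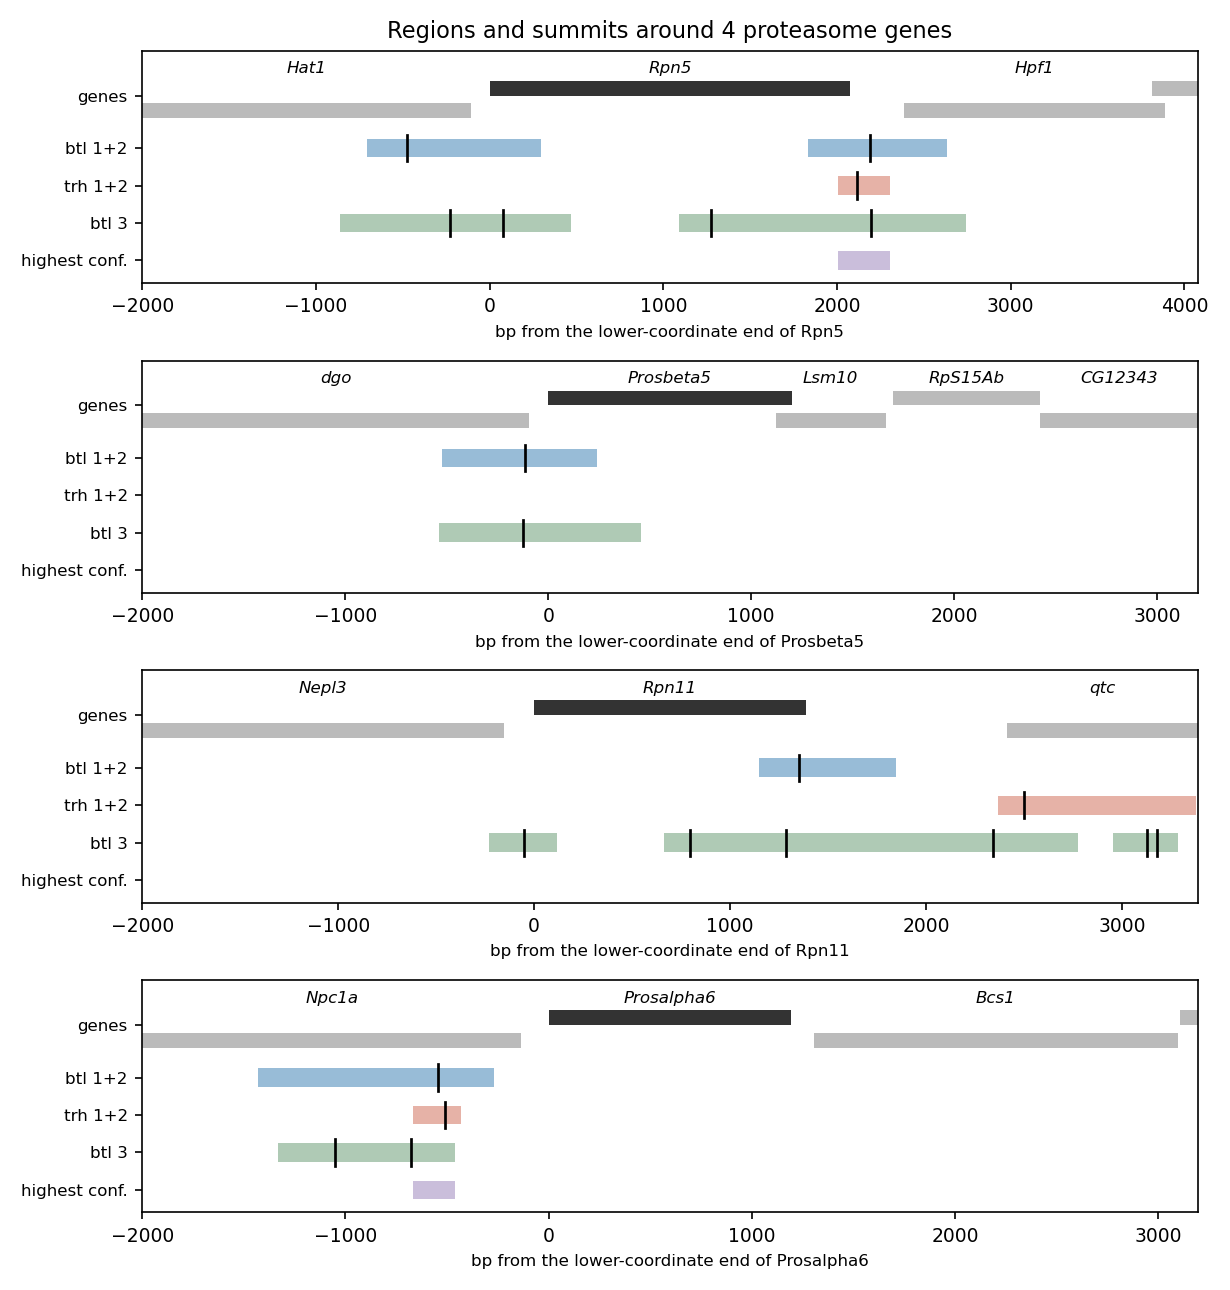
Genes (bars at the top, the named gene in black), regions (coloured bars) and summits (black lines) around Rpn5, Prosbeta5, Rpn11 and Prosalpha6, in bp from the lower end of the named gene. At Rpn5 the summits of all 3 lists stand together past the higher end, at Prosbeta5 those of the btl list and replicate 3 stand 9 bp apart, and at Prosalpha6 the nearest summits lie 508, 543 and 677 bp before the gene.

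Among genes of the core, Prosbeta5 carried the highest btl fold enrichment. It encodes the subunit with chymotrypsin-like activity (Dmel_CG12323, 2R, 10819978 to 10821178). Its fold was 4.37 in the btl list and 4.30 in replicate 3, percentiles 85.0 and 88.8. The summits, 9 bp apart, lay 116 and 125 bp before the lower end. They were nearer to dgo, the planar polarity gene diego, at 22 and 31 bp. The nearest trh summit was 46446 bp away.

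Prosbeta6 (Dmel_CG4097, 3L, 16609400 to 16610418), a non-catalytic beta subunit, had a btl fold of 2.45 at 49 bp inside its higher end, percentile 31.3. Replicate 3 had summits inside both ends, with 1.97 (percentile 27.2) at 170 bp from the higher and 1.76 (13.9) at 86 bp from the lower. For Prosalpha5 (Dmel_CG10938, 2R, 17412767 to 17413769), a subunit of the outer ring, the fold was 2.57 in the btl list and 2.18 in replicate 3 (percentiles 37.5 and 40.4), at 29 and 84 bp inside the lower end. It was the only alpha ring gene bound in the btl list, and no other protein-coding gene end lay within 500 bp of these summits.

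The other core genes with a summit were bound in replicate 3 alone. Prosalpha3 had the highest fold there, 4.51 at percentile 90.6, from a summit 318 bp past its higher end that was nearer to CG10543. Prosalpha2 had 2.76 (percentile 63.1), at 61 bp from its end and 25 bp from CG5245. Prosalpha4 had 2.24 (percentile 43.4) and Prosbeta3 1.77 (14.3), both inside the gene. For these genes the nearest btl summits were 2009, 1411, 578 and 3406 bp away, so Prosalpha4 lay just outside the window there.

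Prosalpha1 and the paralog Prosalpha1R lie 1735 bp apart on 2R, and both were bound in replicate 3 alone. At Prosalpha1 the highest fold was 2.22 (percentile 42.6) and at Prosalpha1R it was 2.44 (52.2). Summits with an equal fold of 2.22 stood inside the higher end of each, at 174 and 110 bp. Whether reads were shared between these 2 copies was not tested, so their counts are uncertain.

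In the base, Rpt2 and Rpt5 encode ATPases of the ring that unfolds substrates, and both had btl and replicate 3 summits. Rpt2 (Dmel_CG5289, 3R, 23929873 to 23931558) had a fold of 2.75 at 14 bp inside its higher end in the btl list. In replicate 3 it had 2.26 at 57 bp past that end. Rpt5 (Dmel_CG10370, 3R, 23752876 to 23754623) had 2.73 and 2.35, at 103 and 209 bp before its lower end, with RanBP3 nearer in both lists. Percentiles of these 4 summits ran from 44.1 to 48.4.

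Rpn13, the ubiquitin receptor of the base (Dmel_CG13349, 2R, 13958545 to 13960404), had a btl fold of 3.04 at percentile 56.6, from a summit 176 bp past its higher end and 95 bp from the cathepsin gene CtsL1. Its strongest replicate 3 summit had 1.81 (percentile 16.7) and lay 275 bp inside the same end, 451 bp from the btl summit. A weaker one, 1.73 at percentile 11.5, lay 35 bp inside it. Among genes bound in both btl lists this was the widest separation of their strongest summits.

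Rpt1, Rpt6 and Rpn10 were bound in the btl list alone, and their summits lay close to a gene end. The distances were 10 bp at Rpt1, 26 bp at Rpt6 and 67 bp at Rpn10, each inside the gene. Fold enrichments were 2.26, 2.43 and 2.26, at percentiles 22.6, 30.5 and 22.3. By -log10 q these peaks ranked at percentiles from 15.7 to 20.5 of the btl list. The nearest replicate 3 summits were 14967 bp away at Rpt1, 5830 bp at Rpt6 and 692 bp at Rpn10.

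In the lid, Rpn11 encodes the enzyme that removes ubiquitin from substrates (Dmel_CG18174, 2L, 5058404 to 5059790). Its fold was 2.29 in the btl list and 2.85 in replicate 3 (percentiles 23.9 and 65.9), at 37 and 101 bp inside its higher end. A further replicate 3 summit at the lower end had 1.49, among the weakest of that list at percentile 0.776. The nearest trh summit lay 1115 bp from the gene, inside qtc.

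Rpn9 (Dmel_CG10230, 3R, 23731375 to 23733462), a structural lid subunit, had 2.76 in the btl list and 4.65 in replicate 3, percentiles 45.7 and 91.5. Both summits lay inside the gene, at 339 and 379 bp from its higher end and 40 bp apart. For Rpn12 (Dmel_CG4157, 3L, 16583028 to 16584022) both lists had a summit inside the lower end and another past the higher end. In the btl list these had folds of 1.89 and 2.00 (percentiles 8.21 and 11.8) at 82 and 305 bp. In replicate 3 they had 2.17 and 3.46 (40.1 and 78.5) at 158 and 364 bp. The stronger summit of each list was nearer to UQCR-C2, a gene of respiratory complex III. Rpn6, which joins lid to core and base, was bound in replicate 3 alone, with 2.26 (percentile 44.7) at 381 bp inside the gene and 8 bp from ave.

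Of the paralogs, Prosbeta2R2 (Dmel_CG12161, 3R, 5217751 to 5219528) had folds of 1.62 in the btl list and 5.22 in replicate 3. These are the lowest btl fold and the highest replicate 3 fold at any proteasome gene end, at percentiles 2.02 and 94.5. The summits lay 400 and 496 bp before the gene, close to the limit of the window, and were nearer to cno, which encodes an adherens junction protein, at 105 and 201 bp. Besides it and Prosalpha1R, the other 14 paralogs (87.5% of the paralogs) were bound in no list, against 57.6% of all genes. They are Prosalpha3T, Prosalpha4T1, Prosalpha4T2, Prosalpha6T, Prosbeta2R1, Prosbeta4R1, Prosbeta4R2, Prosbeta5R1, Prosbeta5R2, Rpn12R, Rpn13R, Rpt3R, Rpt4R and Rpt6R.

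By median fold, the summits at proteasome genes ranked in the lower part of their lists and under gene-end summits in general. In the btl list 16 summits had a median fold of 2.44, at the median percentile 30.9, where all gene-end summits stood at 37.7. In replicate 3 the 28 summits, some of them in the same region, had a median fold of 2.25 at percentile 43.9. All gene-end summits of that list stood at 61.8. Ranked by -log10 q, the medians were 47.3 against 51.3 in the btl list and 53.3 against 63.7 in replicate 3. When only the upper 50% of the btl list by fold was kept, 3 genes remained bound, Rpn5, Prosbeta5 and Rpn13, and 10.3% of all genes. By -log10 q, 7 did, and 13.9% of all genes. With both btl lists cut by fold to the 3210 summits of the trh list, 2 genes kept a btl summit and 5 a replicate 3 summit, as did 7.36% and 11.9% of all genes. The 2 were Rpn5 and Prosbeta5, which were also among the 5.

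**Figure D4:**
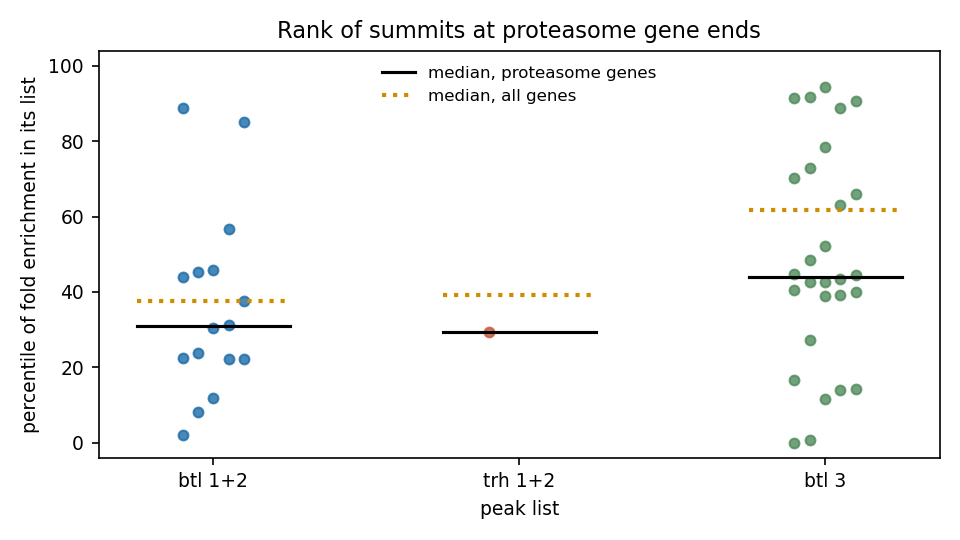
Percentile of fold enrichment within its own list (y axis) for each summit at a proteasome gene end, by list. Black lines are medians over these summits (30.9, 29.3 and 43.9) and dotted lines medians over all gene-end summits (37.7, 39.1 and 61.8); the btl points of Rpn5 and Prosbeta5 stand apart at 88.7 and 85.0, and the trh list has 1 point.

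Many of these summits could belong to a neighbouring gene. In the btl list 11 of 16 pairings of a summit with a proteasome gene (68.8%) had another protein-coding gene end within 500 bp of the summit, against 58.3% over all genes, and in replicate 3 they were 21 of 28 (75.0%), against 54.1%. When a summit was given only to the gene with the nearest end, 9 genes remained bound in the btl list, 11 in replicate 3 and Rpn5 in the trh list. Over all genes the shares also fell, to 19.7%, 28.8% and 6.65%. Prosbeta5, Rpn9, Rpt5 and Prosbeta2R2 then dropped out of both btl lists. Proteasome genes are short, with a median length of 1382 bp against 2163 bp for all genes, and the median distance to the nearest other gene end was 110 bp against 192 bp.

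In position relative to the ends, 8 of the 16 btl pairings (50.0%) lay within 100 bp, against 37.9% over all genes, and 7 of the 28 in replicate 3 (25.0%), against 19.9%. Summits inside the gene made up 9 of 16 and 15 of 28, or 56.2% and 53.6%, against 44.0% and 51.0% over all genes. The median distances were 92.5 and 172 bp, against 141 and 191 bp. Some proteasome genes lay within 30000 bp of each other. Rpn12 and Prosbeta6 lie 25378 bp apart on 3L, and Rpn9 and Rpt5 lie 19414 bp apart on 3R. All 4 had summits in both btl lists and none in the trh list, as did 16.1% of all genes. The other such pairs were Prosalpha1 with Prosalpha1R, bound in replicate 3 alone, and Prosbeta4R1 with Prosbeta4R2, bound in no list.

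The 27 genes bound in no list (56.2%, against 57.6% of all genes) differed widely in their distance from a summit. Prosalpha6, an outer ring gene (Dmel_CG4904, 2L, 10221351 to 10222546), fell just outside the window in each list, with summits at 508 bp in the trh list, 543 bp in the btl list and 677 bp in replicate 3. These summits had folds of 2.71, 2.84 and 2.20. A highest-confidence region reached into the window, which made Prosalpha6, with Rpn5, 1 of the 2 genes reached by that list. That region began where the trh region began and ended where the replicate 3 region ended. The summits named here lie inside Npc1a, a sterol transport gene. Rpn3 had a replicate 3 summit at 639 bp, and Rpn2 had its nearest at 904 bp in the btl list and 983 bp in replicate 3.

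Among the remaining genes without an R or T the nearest summits were farther off. They are Prosalpha7, Prosbeta1, Prosbeta2, the catalytic subunit with trypsin-like activity, Prosbeta4, Prosbeta7, Rpn1, Rpn7, Rpn8, Rpt3 and Rpt4. The largest btl distance among them was 23113 bp, at Rpn8, although replicate 3 had a summit inside that gene, 2025 bp from its end. Over the 32 genes the median distance was 1158 bp in the btl list, 510 bp in replicate 3 and 11010 bp in the trh list. Over the 16 paralogs it was 23040, 12610 and 40840 bp, and over all genes 3018, 2000 and 13160 bp. Prosbeta4R1 and Prosbeta4R2, neighbours on 2L, were the most distant in both btl lists, at 67633 and 69981 bp in the btl list.

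**Figure D5:**
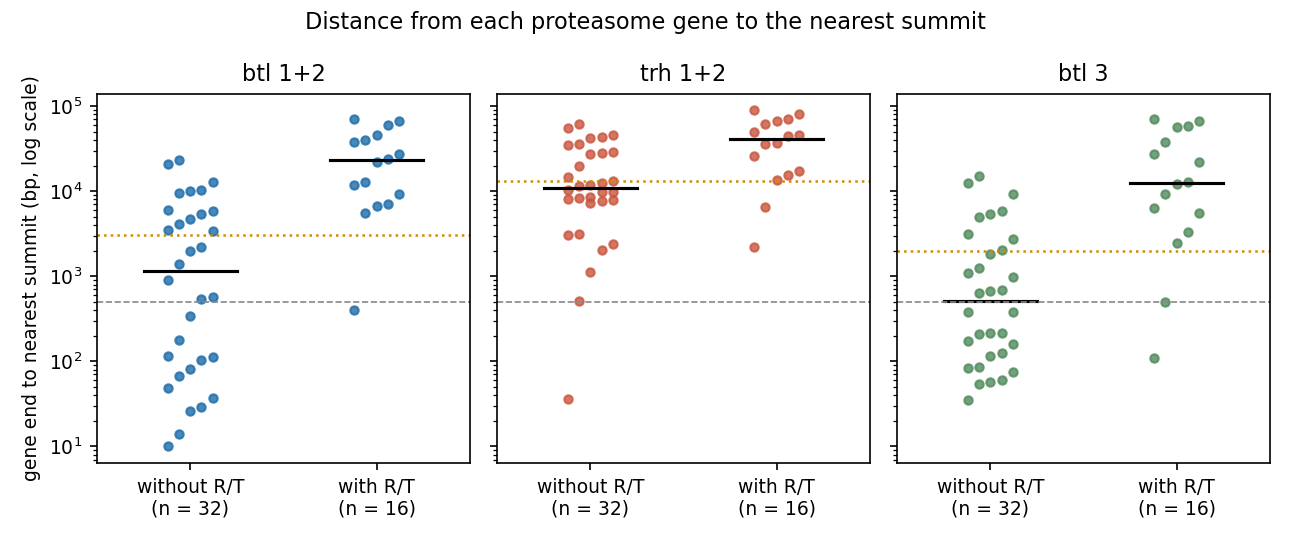
Distance from the nearer gene end to the nearest summit of each list (y axis, bp, log scale) for the 32 genes without and the 16 with an R or T. Black lines are medians, the dashed line is the 500 bp window and the dotted line the median over all protein-coding genes; paralog medians (23040, 40840 and 12610 bp) lie above it in each list.

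Other genes of the ubiquitin system were examined by lists chosen by name. Of the 11 accessory factors, 6 were bound in the btl list, 6 in replicate 3 and 0 in the trh list, against 26.7%, 36.1% and 8.32% of all genes. Sem1, a small lid subunit outside the symbol rule, had folds of 3.18 and 1.80 in the btl list and replicate 3. The proteasome-bound deubiquitinases Uch-L5 and Usp14 had 3.22 and 2.70 in the btl list and 4.82 and 2.40 in replicate 3. For TER94, the ATPase that extracts ubiquitinated proteins from membranes and complexes, the values were 1.96 and 3.36. Pomp, a chaperone of core assembly, PI31 and rngo were bound in no list. REG, the proteasome activator gene, was bound in replicate 3 alone with a fold of 6.93, percentile 98.7. Ubqn was bound there alone too, from a summit 492 bp from its end, close to the limit of the window. Npl4 and Rad23 were bound in the btl list alone.

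Ubiquitin supply genes numbered 5, of which the btl list bound 4, the trh list 2 and replicate 3 bound 3, against 26.7%, 8.32% and 36.1% of all genes. RpL40 was bound in no list. The polyubiquitin gene Ubi-p63E was bound in all 3, with a btl fold of 3.31, a trh fold of 2.00 and 1.85 in replicate 3, and a highest-confidence region reached it. Its relative Ubi-p5E had 4.96 in the btl list, percentile 90.4, and 3.87 in replicate 3. RpS27A, which encodes ubiquitin fused to a ribosomal protein, had a btl fold of 2.20 and a trh fold of 1.86. The ubiquitin-activating enzyme gene Uba1 had 1.99 in the btl list (percentile 11.4) and 8.86 in replicate 3 (percentile 99.8).

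Of 3 regulators the btl list bound 2, the trh list 1 and replicate 3 bound 2, against 26.7%, 8.32% and 36.1% of all genes, and cap-n-collar (cnc) was bound in all 3 lists. It encodes a transcription factor known to raise proteasome gene expression under stress. Its fold was 2.57 for btl, 2.05 for trh and 3.26 for replicate 3, with summits 33, 9 and 27 bp from a gene end, and a highest-confidence region reached it. Its partner gene maf-S was bound in replicate 3 alone, with 1.99 at 181 bp. The inhibitor gene Keap1 was bound in the btl list alone, with 3.29 at 482 bp, close to the limit of the window.

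The COP9 signalosome, which removes Nedd8 from cullins, is built of subunits related to those of the lid. Of its 9 genes, 5 were bound in the btl list, 6 in replicate 3 and 0 in the trh list, or 55.6%, 66.7% and 0%, against 26.7%, 36.1% and 8.32% of all genes. CSN3 had 4.09 and 6.26 in the btl list and replicate 3, CSN7 3.14 and 4.89, alien 3.70 and 3.40, and CSN8 2.00 and 2.19. CSN5 was bound in the btl list alone, at 474 bp and so close to the limit of the window. CSN1b and CSN4 were bound in replicate 3 alone, and CSN1a and CSN6 in no list.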

How the data were processed

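Peak lists were deposited without headers. The submitters' processing notes name MACS2 and the build dm6, with no role or order, and per the file description in the labels the lists of replicates 1 and 2 were filtered at an irreproducible discovery rate of 0.1, a measure of how alike peaks rank in replicates. Columns were read as MACS2 writes the narrowPeak layout: the authors' signal value as fold enrichment, the deposited -log10 q-value, and a summit offset. That reading is an assumption. The highest-confidence list, as deposited, has positions only. Coordinates are dm6, the build of the gene table (Release 6), counted from 1.

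Summits off the 6 arms were left out. Every summit of a replicate 3 region was used, and a highest-confidence gene needed any part of a region within 500 bp. Counts of bound genes were set against the share over 13922 genes. No enrichment test was run. The members and lists were chosen with earlier results of these data known. Each proteasome gene bound in at least 1 list is named, and those bound in 2 or more have their coordinates and summit distances. Of the other lists, genes bound in 2 or 3 lists are given with their folds, and the rest were named after their values were seen. Of 38 symbols listed singly (Rpn and Rpt members and genes outside the family), 37 were in the table, and Ufd1-like was not found. The search was tested on simulated summits. Alternatives changed the window, the unit that counts, the list length and the ranking. A promoter motif search and a count at gene starts alone had been planned but were not run. No promoter or genome sequence was at hand, and the gene table gives no strand. Python 3.11.15, pandas 2.3.3 and matplotlib 3.10.9 were used.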

Additional observations from a re-analysis of the deposited data

How the results depend on the processing

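Of 50 alternatives, 26 left a count within 1.5 times its value or a median the same, and 24 did not. Counts were compared without the share over all genes. A shorter list, a narrower window or the nearest gene end alone cannot raise a count. Keeping only the 32 genes without an R or T was also scored by count, with no allowance for the smaller set. Keeping the upper 50% of each list by fold gave 3 btl genes (10.3% of all genes), 0 trh genes (3.40%), 9 in replicate 3 (24.4%) and 0 in all 3 lists (1.06%). By -log10 q these were 7 btl genes (13.9% of all genes), 0 trh genes (4.39%), 13 in replicate 3 (25.2%) and 0 in all 3 (2.12%). Lists cut to the size of the trh list gave 2 in the btl list (7.36% of all genes) and 5 in replicate 3 (11.9%). Giving a summit to the nearest gene end alone left 9 in the btl list (19.7% of all genes) and 11 in replicate 3 (28.8%). Keeping only the strongest summit of each replicate 3 region left 17 genes bound there (31.0% of all genes). With a window of 1000 bp, 2 genes were bound in the trh list (11.7% of all genes) and 2 in all 3 lists (8.41%). Whole regions in place of summits gave the same counts, against 9.86% and 7.18% of all genes. The second gene was Prosalpha6 each time. With 250 bp the highest-confidence list reached 1 gene (5.23% of all genes).

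The median percentile of summits, 30.9 for btl, 29.3 for trh and 43.9 for replicate 3, was 47.3, 27.7 and 53.3 by -log10 q, where all gene-end summits stood at 51.3, 51.9 and 63.7. With 250 bp it was 34.4 in the btl list and 42.6 in replicate 3, against 36.5 and 62.6 for all gene-end summits. With 1000 bp it was 31.3, 55.7 and 44.4, against 39.3, 40.3 and 60.0. The trh value of 55.7 came from 2 summits. These medians have no error, so any move was counted. Leaving out replicate 3 left the count bound in the remaining lists at 1 (6.07% of all genes). No paired analysis was possible because the lists merge replicates 1 and 2. Unknown depth limits what an unbound gene means: a peak was not detected there, and the trh list was the shortest with summits. Without strand, gene starts were not separated.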
